A study of Mus musculus with 12 samples.

Results

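The clustered protocadherins are the genes of 3 neighbouring arrays on mouse chromosome 18, called alpha, beta and gamma. Members were taken by symbol (Pcdha, Pcdhac, Pcdhb, Pcdhga, Pcdhgb or Pcdhgc followed by a number), which gave 58 of the 55421 gene IDs in the count tables and 57 symbols. The alpha array held 14 IDs, the beta array 22 and the gamma array 22. The symbols fixed the members, but the family itself was chosen by measured values: Pcdhgb4 had been among the genes of smallest p for AA14 in control mice in earlier results of these libraries. All measures of that comparison are therefore descriptions here and carry no test. The same holds for the difference between the AA14 effects of the genotypes, which contains that comparison, and for Pcdhgb4 in the cre comparisons, which reuse its libraries.

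Bulk RNA sequencing was done on pituitaries of C57BL/6 mice that had been dispersed into single cells. The genotypes were labelled Cga-ctrlAAVGpr101fl/fl and Cga-creAAVGpr101fl/fl, so both carried a floxed Gpr101 allele, a G protein-coupled receptor gene, and differed in a control or cre AAV. What Cga stands for in these names is not explained in the labels. The cells also underwent flow cytometry, and the labels do not say whether cells were sorted before sequencing. Each genotype received vehicle or AA14, a ligand, for 1 week. The 4 groups had 3 libraries each: ctrl_vehicle and ctrl_AA14 from the control AAV, cre_vehicle and cre_AA14 from the cre AAV. Library numbers are those of the titles. Age is not labelled, nor is it stated whether libraries came from separate or pooled mice, so p-values measure only the spread between these libraries.

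Library totals ran from 48693682 to 73388221 counts. Growth hormone transcript Gh, a defining product of the anterior pituitary, was at 90441 to 241856 CPM (counts scaled to an equal library total), and Pou1f1, a pituitary transcription factor, at 123 to 258 CPM. Gpr101 was low and overlapped between genotypes, at 1.22 to 16.1 CPM in the 6 control libraries and 0.901 to 4.29 CPM in the 6 cre libraries, so it did not separate them. Several libraries stood apart. The nuclear long non-coding RNA Malat1 was at 1105 to 1560 CPM in 5 libraries (ctrl_AA14 1, 2 and 3, cre_vehicle 1 and cre_AA14 2) and at 199 to 549 CPM in the other 7. Of 10 oligodendrocyte genes, Mog and Opalin reached 0 in some libraries, and the summed level was 2545 CPM in ctrl_vehicle 3, 3429 CPM in cre_vehicle 2 and 802 CPM in ctrl_AA14 1, against 80.6 to 476 CPM elsewhere. In bulk RNA, fewer cells of a type and less RNA per cell cannot be told apart.

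Clustered protocadherins are cell-surface adhesion proteins of the cadherin superfamily that recognise the same isoform on a facing cell, and they are best known for giving single neurons an identity used in self-avoidance of their branches. In neurons, each cell draws a small set of alpha, beta and gamma isoforms by choosing promoters, with CTCF and cohesin looping the promoter to an enhancer and DNA methylation silencing the rest. The C-type genes at the ends of the alpha and gamma arrays are expressed more broadly among cells than the others. In the alpha and gamma arrays every isoform joins its own first exon to constant 3' exons, while each beta gene stands alone.

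These structures set what a count can say. In a GENCODE annotation of the authors' build, GRCm38, the alpha members lay between 36930184 and 37187661 on chromosome 18, the beta members between 37264938 and 37524479, and the gamma members between 37661793 and 37841873. All 14 alpha members shared exon sequence with another alpha member, with a median of 2860 bp or 53.4% of their exons. All 22 gamma members did so as well, with a median of 2119 bp or 44.7%. In the beta array only Pcdhb21 and Pcdhb22 shared any. Pcdhga10 had 0 bp of exon that no other gene covered. Exons of 4 alpha, 1 beta and 8 gamma members also overlapped genes on the opposite strand. How the authors' counting treated such reads is not given in the sources used here. Levels of single alpha and gamma members are therefore uncertain. The symbol Pcdha11 stood for 2 IDs, of which ENSMUSG00000007440 (start 37005203) covers the RefSeq gene Pcdha10 and ENSMUSG00000102206 starts at 37010712.

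All 58 members passed the low-count filter, and together they took 0.0333% to 0.0759% of a library's counts. The alpha sum was steady. It was 43.6, 46.2 and 56.9 for ctrl_vehicle, 38.8, 50.4 and 38.9 for ctrl_AA14, 48.1, 55.7 and 49.4 for cre_vehicle, and 40.7, 50.3 and 49.4 CPM for cre_AA14. The highest library was 1.47 times the lowest, and all groups overlapped.

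The beta sum was as steady, with the highest library at 1.35 times the lowest. It was 156, 193 and 149 for ctrl_vehicle, 174, 201 and 175 for ctrl_AA14, 168, 172 and 187 for cre_vehicle, and 165, 196 and 201 CPM for cre_AA14. The group means, 166 ± 23.9, 183 ± 15.2, 176 ± 9.97 and 187 ± 19.2 CPM (SD, n = 3), came from groups that all overlapped.

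The gamma sum varied 4.46-fold between libraries. It was 360, 387 and 521 for ctrl_vehicle, 176, 188 and 131 for ctrl_AA14, 117, 507 and 275 for cre_vehicle, and 230, 161 and 413 CPM for cre_AA14. All 3 ctrl_vehicle libraries lay above all 3 ctrl_AA14 libraries, while both cre groups overlapped both control groups and each other. The cre_vehicle mean of 299 ± 196 CPM (SD, n = 3) was 196 CPM without cre_vehicle 2. Over the 12 libraries, the median sum per kb of exon was 1.20 CPM for alpha, 1.89 CPM for beta and 3.56 CPM for gamma.

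**Figure D1:**
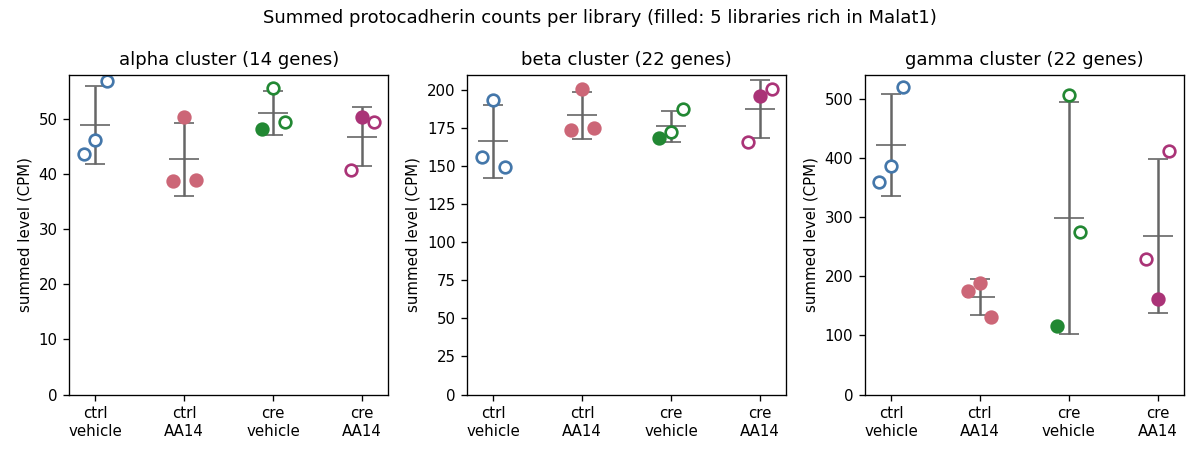
Summed level (CPM, linear axis from 0) of the alpha, beta and gamma arrays in each of the 12 libraries by group, with the bar at the group mean and whiskers at 1 SD (n = 3). Filled points are the 5 libraries rich in Malat1: they hold the 5 lowest gamma sums (117 to 188 CPM, against 230 to 521 CPM in the other 7) and mix with the others for alpha and beta.

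The gamma sum was split by Malat1 state. In the 5 Malat1-rich libraries it was 117 to 188 CPM and in the other 7 it was 230 to 521 CPM, with no overlap. The alpha sums (38.8 to 50.4 against 40.7 to 56.9 CPM) and beta sums (168 to 201 against 149 to 201 CPM) overlapped. Of the 58 members, 3 were lower in all 5 Malat1-rich libraries than in any other (13.1% of all genes tested) and 1 was higher (9.23% of all genes tested), so the family as a whole stood below the background in both directions. The 3 lower ones were Pcdhgc3, Pcdhgc4 and Pcdhgb7, and the higher one was Pcdhb22. For Pcdhb22 the nearest values, 11.52 CPM in the Malat1-rich and 11.51 CPM in the other libraries, almost met. Pcdhgb7 and Pcdhb22 are named because these counts are small, after their values were seen. Malat1 state and treatment coincide in the control mice, where all 3 ctrl_AA14 and no ctrl_vehicle libraries were Malat1-rich, so there the state and AA14 cannot be told apart. In cre mice each treatment had 1 Malat1-rich library, cre_vehicle 1 and cre_AA14 2, and these held the lowest gamma sum of their groups.

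The C-type gamma genes carried that pattern most plainly. Pcdhgc3, which promotes dendrite branching in cortical neurons, was the highest member per length, with a median of 8.26 CPM per kb of exon. Its level was 44.9, 45.9 and 70.0 for ctrl_vehicle, 12.8, 12.9 and 10.4 for ctrl_AA14, 20.0, 73.9 and 63.2 for cre_vehicle, and 56.4, 29.0 and 48.2 CPM for cre_AA14. The 5 lowest values are those of the 5 Malat1-rich libraries. Exons of BC037039 on the opposite strand cover 1559 bp of its 5499 bp.

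Pcdhgc4, the gamma isoform needed for survival of many interneurons, was low in the same 5 libraries and had a median of 3.96 CPM per kb. It was at 21.3, 24.3 and 30.3 for ctrl_vehicle, 6.44, 9.06 and 5.31 for ctrl_AA14, 8.25, 30.5 and 33.8 for cre_vehicle, and 27.8, 9.66 and 23.0 CPM for cre_AA14. The ratio of Pcdhgc3 to Pcdhgc4 stayed between 1.43 and 3.00 over the 12 libraries. The 2 genes share the constant 3' exons, so their counts are not separate measurements.

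Pcdhgc5, an isoform found at GABAergic synapses, shares the same exons but did not separate the libraries. It was at 4.59, 8.67 and 10.9 for ctrl_vehicle, 9.06, 4.84 and 4.28 for ctrl_AA14, 7.91, 10.03 and 9.21 for cre_vehicle, and 8.58, 3.93 and 7.55 CPM for cre_AA14. All 4 groups overlapped, and the Malat1-rich libraries covered 3.93 to 9.06 CPM against 4.59 to 10.9 CPM in the rest.

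The C-type genes of the alpha array were lower. Pcdhac2, which is needed for the tiling of serotonergic axons, was at 8.09, 7.73 and 11.4 for ctrl_vehicle, 3.84, 4.01 and 3.19 for ctrl_AA14, 6.09, 10.4 and 9.40 for cre_vehicle, and 4.95, 2.83 and 9.71 CPM for cre_AA14. It was lowest in cre_AA14 2 and in the 3 ctrl_AA14 libraries, and cre_AA14 1, which was not Malat1-rich, lay below cre_vehicle 1, which was. Pcdhac1, the other C-type alpha gene, was at 0.871 to 2.85 CPM over all 12 libraries, with the lowest value in ctrl_AA14 1 and the highest in ctrl_vehicle 3.

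**Figure D2:**
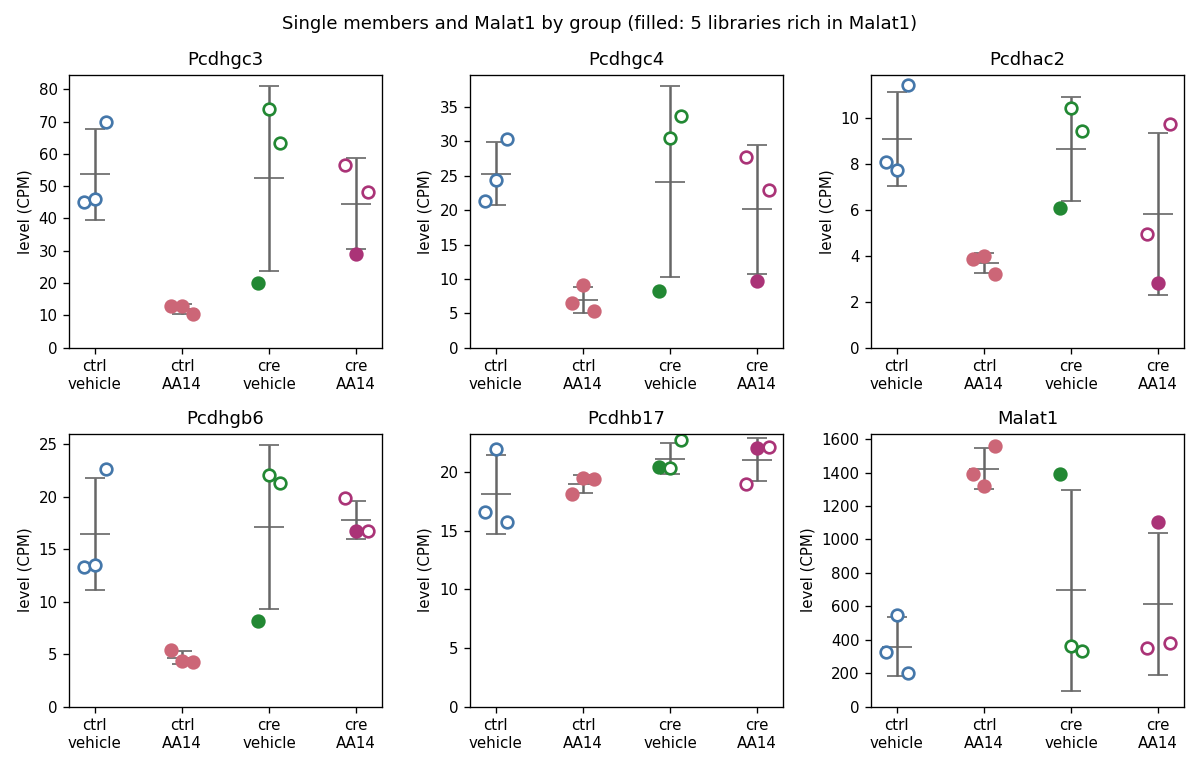
Level (CPM, linear axes from 0) of 5 members and of Malat1 in each library, with the group mean and 1 SD (n = 3); filled points are the 5 libraries rich in Malat1. Pcdhgc3 and Pcdhgc4 are low in every filled point, Pcdhb17 lies between 15.7 and 22.7 CPM throughout, and Pcdhgb6 is at 16.7 CPM in the Malat1-rich library cre_AA14 2.

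Among the other isoforms, the alpha genes were low. The highest were the Pcdha11 ID ENSMUSG00000007440 at 3.89 to 9.95 CPM, Pcdha9 at 3.87 to 7.70 CPM and the Pcdha11 ID ENSMUSG00000102206 at 1.48 to 9.20 CPM. The lowest was Pcdha1 at 0.260 to 2.30 CPM. Pcdha6, named after its values were seen, fell into separate levels: 2.85 to 4.97 CPM in ctrl_vehicle 3, ctrl_AA14 3, cre_vehicle 1 and 2 and cre_AA14 1, and 0.545 to 0.873 CPM in the other 7 libraries. Every group held libraries of both kinds.

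The beta genes were the most even. The ranking of the 22 beta members agreed between libraries with a median Spearman rho of 0.87 over the 66 pairs of libraries, against 0.73 for the 14 alpha members and 0.41 for the 22 gamma members. These correlations are across genes within pairs of libraries, and genes are not independent replicates. The edgeR biological coefficient of variation, the spread left within groups, had a median of 0.272 for beta, 0.455 for alpha and 0.577 for gamma members, against 0.333 for all genes tested. Pcdhb17 was the highest beta gene per length at a median of 4.28 CPM per kb, and it ranged from 15.7 to 22.7 CPM. Pcdhb14, the highest in CPM but at 2.61 CPM per kb, was at 17.2 to 34.8 CPM, and Pcdhb3 at 6.85 to 16.7 CPM.

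Exceptions in the beta array lay near its end, in Pcdhb19, Pcdhb21 and Pcdhb22, of which Pcdhb19 and Pcdhb22 are named after their values were seen. Pcdhb19 was listed at 0 counts in ctrl_AA14 1 and 3, cre_vehicle 1 and cre_AA14 2, which are 4 of the 5 Malat1-rich libraries, and was at 4.53 to 8.79 CPM in the other 8. A count of 0 allows up to 0.0607 CPM in the shallowest of these libraries. A library at 0 was rare for genes with a median of at least 100 counts, at 39 of 15041 or 0.259%.

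Pcdhb21 was listed at 0 in 7 libraries and was at 0.374 to 2.25 CPM in ctrl_vehicle 1, ctrl_AA14 2 and 3 and cre_vehicle 2 and 3. Its neighbour Pcdhb22, with which it shares 455 bp of exon, was lowest in cre_vehicle 2 and 3 and ctrl_vehicle 1, at 1.20, 1.91 and 3.88 CPM, and lay at 10.8 to 15.1 CPM in the other 9 libraries. In the 3 libraries with little Pcdhb22, Pcdhb21 was at 1.54, 2.25 and 1.99 CPM. Both were present in ctrl_AA14 2 (Pcdhb21 at 1.79 and Pcdhb22 at 13.2 CPM) and in ctrl_AA14 3 (0.374 and 15.1 CPM).

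**Figure D3:**
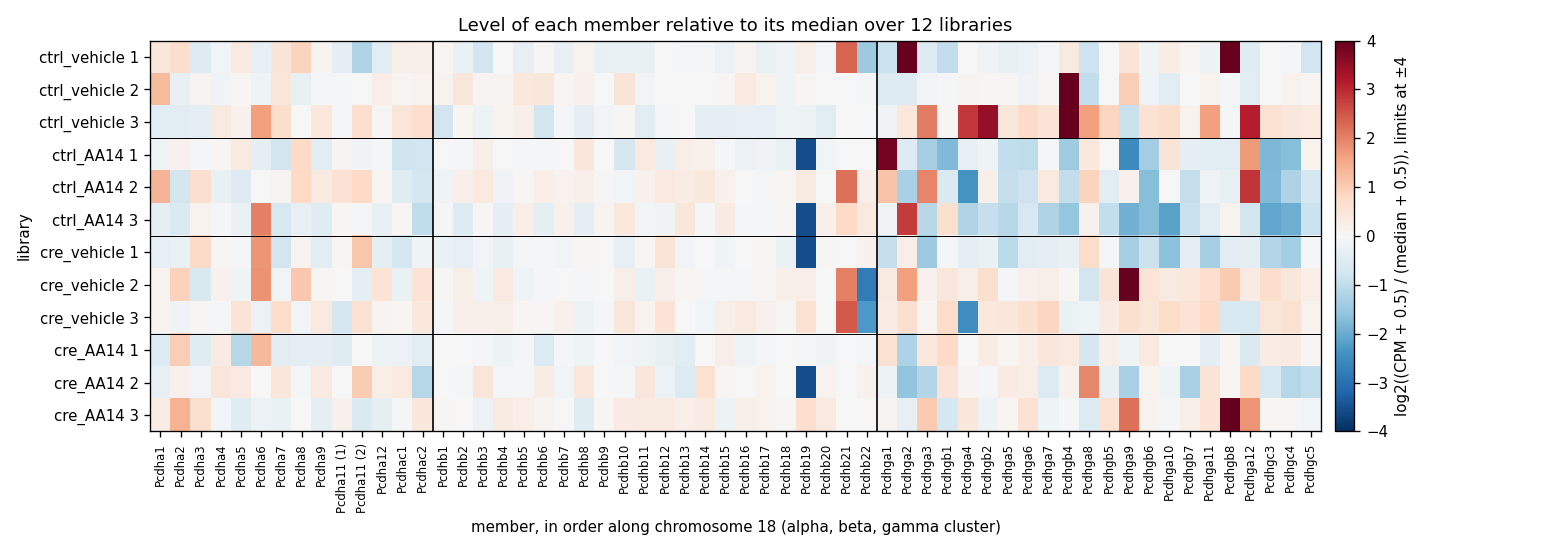
Level of each of the 58 members in each library as log2 of its CPM over the member's median of the 12 libraries (0.5 CPM added to both, colours limited at ±4), with members in order along chromosome 18 and lines between the arrays and groups. The beta block is pale except for Pcdhb19, Pcdhb21 and Pcdhb22, and the dark red cells are single gamma A and gamma B members in single libraries.

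The gamma A and gamma B genes differed from library to library in which member was high. A library at 5 or more times a member's median over the 12 libraries, a limit set after seeing the data, occurred in 9 of the 19 gamma A and B members. It occurred in 1 of the 14 alpha members, in 0 of the 22 beta members and in 0 of the 3 C-type gamma members. Among the beta members, Pcdhb21 could not meet this rule, because its median was 0 CPM and such genes were not counted. Among all genes tested the share was 6.19%, and among those with a median of at least 1 CPM it was 2.42%. The 9 members had 13 such values in 9 libraries, and a member had at most 2.

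Pcdhga9 reached 233 CPM (17420 counts) in cre_vehicle 2 against a median of 12.2 CPM, and alone made up 46.0% of that library's gamma sum. Pcdhgb4 was at 185 CPM (13028 counts) in ctrl_vehicle 2 and 75.3 CPM (5488 counts) in ctrl_vehicle 3, against 1.14 to 5.76 CPM in the other 10 libraries. The third ctrl_vehicle library lay near the top of that low range, at 5.62 CPM. The ctrl_AA14 libraries were the lowest of all, at 1.14 to 1.89 CPM.

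Pcdhgb8, annotated as a polymorphic pseudogene, was at 136 CPM in cre_AA14 3 and 58.3 CPM in ctrl_vehicle 1, and between 1.05 and 4.32 CPM elsewhere. Pcdhga2 reached 124 CPM in library ctrl_vehicle 1 and 51.7 CPM in library ctrl_AA14 3, and lay between 2.01 and 23.0 CPM elsewhere. Pcdhga12 reached 63.4 CPM in library ctrl_vehicle 3 and 51.4 CPM in library ctrl_AA14 2, and lay between 3.81 and 23.7 CPM elsewhere. Pcdhga12 was also at 22.8 CPM in ctrl_AA14 1 and 23.7 CPM in cre_AA14 3, and Pcdhga9 at 57.3 CPM in cre_AA14 3, all below 5 times the member's median. None of these members was at 5 or more times its median in all 3 libraries of a group.

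Further high values stood in single libraries. Pcdhgb2 (61.6 CPM) and Pcdhga4 (45.8 CPM) joined Pcdhgb4 and Pcdhga12 in ctrl_vehicle 3, one of the libraries rich in oligodendrocyte transcripts. Pcdhga1, named after its values were seen, was at 57.3 CPM in ctrl_AA14 1, and Pcdhga8, the lowest gamma A member, at 5.80 CPM in cre_AA14 2. Libraries cre_vehicle 1, cre_vehicle 3 and cre_AA14 1 had no such member.

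Leaving out the members that were high in each library, the gamma sum was 177, 202 and 275 for ctrl_vehicle, 118, 137 and 79.5 for ctrl_AA14, 117, 273 and 275 for cre_vehicle, and 230, 156 and 277 CPM for cre_AA14. The 5 Malat1-rich libraries were still the 5 lowest, at 79.5 to 156 CPM against 177 to 277 CPM. This remainder includes the C-type gamma genes, which summed to 20.0 to 42.6 CPM against 70.8 to 114 CPM. The separation depended on them. Of the remainder, C-type genes made up 26.8 of 137 CPM in the Malat1-rich ctrl_AA14 2 and 70.8 of 177 CPM in ctrl_vehicle 1. The other gamma A and B members were thus higher in ctrl_AA14 2, and without C-type genes the states overlapped. The sum of all gamma A and B members, high ones included, overlapped between the states (80.5 to 161 against 137 to 409 CPM).

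**Figure D4:**
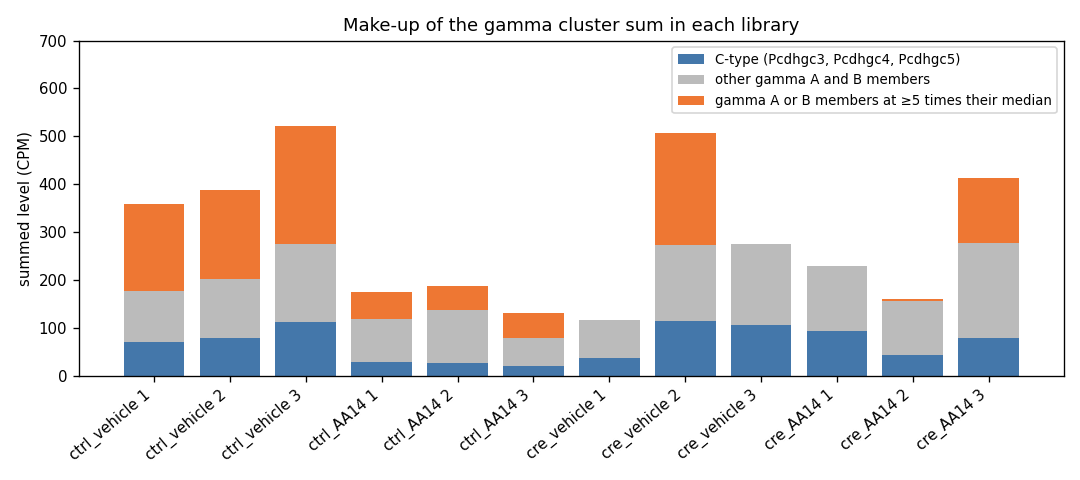
Gamma array sum in each library (CPM, bars from 0) split into the C-type genes, the gamma A and B members at 5 or more times their median of the 12 libraries, and the remaining gamma A and B members. The high members supplied up to 50.7% of the sum (ctrl_vehicle 1) and 0% in cre_vehicle 1, cre_vehicle 3 and cre_AA14 1.

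Pcdhgb6 differed from both kinds, but was not the only member to do so. It was at 13.3, 13.5 and 22.6 for ctrl_vehicle, 5.38, 4.29 and 4.26 for ctrl_AA14, 8.11, 22.0 and 21.3 for cre_vehicle, and 19.8, 16.7 and 16.7 CPM for cre_AA14. Low values were those of the ctrl_AA14 libraries and cre_vehicle 1, while the Malat1-rich library cre_AA14 2 lay with the high ones. Pcdhga6 was at 2.27 to 3.14 CPM in ctrl_AA14, 3.66 to 8.24 CPM in cre_vehicle, 4.35 to 9.07 CPM in ctrl_vehicle and 5.94 to 7.90 CPM in cre_AA14. Pcdhgb5, the lowest gamma B member tested by mean level, was at 1.44 to 6.51 CPM and overlapped between all groups.

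AA14 in cre mice is the comparison that shares no library with the one that drew attention to the family. The edgeR quasi-likelihood test with Benjamini-Hochberg adjustment over 22630 genes called 0 of 58 members (background 0%). At an unadjusted p below 0.05 it had 1 higher member (1.2% of all genes) and 1 lower (1.09%). DESeq2 called 1, Pcdhb21 (0.0405% of all genes with an adjusted p), and limma-voom 0 (0%). The median fitted log2 fold change was -0.19 for alpha, 0.01 for beta, -0.04 for gamma and -0.07 for all 58 members, beside 0.00 for all genes tested.

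Member by member, Pcdhgc3 had a log2 fold change of -0.23 (SE 0.40), Pcdhgc4 -0.26 (SE 0.48), Pcdhgc5 -0.44 (SE 0.39) and Pcdhac2 -0.57 (SE 0.39), each smaller than 1.5 times its SE. The groups did not overlap for Pcdhb14, higher under AA14 in all 3 libraries (3.32% of all genes), and Pcdhga2, lower in all 3 (2.54% of all genes). Pcdhb14 was at 22.5, 21.9 and 21.1 for cre_vehicle and 22.8, 34.8 and 29.3 CPM for cre_AA14, with a fitted log2 difference of 0.41 and an edgeR adjusted p of 1.00 (0.686 to 1.00 over the alternatives). Pcdhga2 was at 8.67, 23.0 and 11.4 for cre_vehicle and 2.73, 2.01 and 5.48 CPM for cre_AA14.

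The smallest unadjusted p values rested on few libraries. Pcdhgb8, fitted at 4.41 on the log2 scale, was at -0.19 without cre_AA14 3. Pcdhb21 had 261 counts over the 3 cre_vehicle libraries and 0 over cre_AA14, so it was at least 79.9-fold lower against a floor of 3 counts over the group. Counting error alone enters that bound, and cre_vehicle 1 was itself at 0 counts, so the groups overlapped. Its edgeR adjusted p was 1.00.

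For AA14 in control mice the values are a description. Of the 58 members, edgeR called 0 (background 0.00442%), DESeq2 9 (11.9% of all genes with an adjusted p) and limma-voom 7 (15.1% of all genes). A fit of these groups alone called 6 (10.6% of all genes). At an unadjusted p below 0.05 there were 1 higher (8.03% of all genes) and 11 lower members (15.8% of all genes). The groups did not overlap for 5 higher (17.6% of all genes) and 12 lower members (20.1% of all genes). Median log2 fold changes were -0.15 for alpha, 0.12 for beta and -1.17 for gamma, beside -0.02 for all genes, and 18 of 22 gamma members were negative.

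Of the C-type genes, Pcdhgc3 was lower by a fitted log2 difference of -2.16 (SE 0.42), Pcdhgc4 of -1.87 (SE 0.50), Pcdhac2 of -1.30 (SE 0.40) and Pcdhgc5 of -0.41 (SE 0.39). Pcdhgb6 had a value of -1.82 (SE 0.35). Pcdhgb4 had -5.95 (SE 0.95), a size set by the 2 high ctrl_vehicle libraries. Its mean was 88.7 ± 90.5 CPM (SD, n = 3) in ctrl_vehicle and 1.43 ± 0.402 CPM (SD, n = 3) in ctrl_AA14. The groups did not overlap, since ctrl_vehicle 1, at 5.62 CPM, also lay above the 1.14 to 1.89 CPM of ctrl_AA14. Malat1 levels were 199 to 549 CPM for ctrl_vehicle against 1322 to 1560 CPM for ctrl_AA14, and this state cannot be told apart from AA14 here.

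The cre effect under vehicle uses the ctrl_vehicle libraries again. No member was called by edgeR (background 0.00442%), DESeq2 called 1, Pcdhgb4 (0.052% of all genes with an adjusted p), and limma-voom 0 (0.00884%). At an unadjusted p below 0.05 there were 0 higher members (0.932% of all genes) and 3 lower ones (1.06%), Pcdhgb4, Pcdhga4 and Pcdhgb2. All 3 were high in ctrl_vehicle 3. The log2 fold change of Pcdhgb4 was -4.57 (SE 0.88) and is a description. Without ctrl_vehicle 1, the library in which it was low, edgeR called it. The median over all 58 members was 0.01 beside -0.02 for all genes, and Pcdhgc3 was at -0.03 (SE 0.40).

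The groups did not overlap for 1 higher member, Pcdhb12 (2.39% of all genes), and 2 lower, Pcdhgb4 and Pcdhac1 (2.53% of all genes). Pcdhb12, outside the naming rule and named for this count, had a log2 fold change of 0.49 (SE 0.27). Pcdhac1 was at 2.29, 2.00 and 2.85 CPM for ctrl_vehicle and 0.950, 1.47 and 2.00 CPM for cre_vehicle, where the nearest values, 2.0038 and 1.9996 CPM, differed by far less than the spread within either group.

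The cre effect under AA14 uses the ctrl_AA14 libraries, all Malat1-rich, against cre_AA14 with 1 Malat1-rich library. edgeR called 0 of 58 members (background 0%), DESeq2 3, which were Pcdhb21, Pcdhgb6 and Pcdhgc3 (0.139% of all genes with an adjusted p), and limma-voom 0 (0%). At an unadjusted p below 0.05 there were 8 higher (7.08% of all genes) and 2 lower members (1.44%). The groups did not overlap for 7 higher (7.3% of all genes) and 2 lower members (6.76%). The median was 0.03 for alpha, 0.05 for beta and 0.66 for gamma, beside -0.01 for all genes.

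Pcdhgb6 had a log2 fold change of 1.93 (SE 0.35), Pcdhgc3 of 1.89 (SE 0.42), Pcdhgc4 of 1.54 (SE 0.49) and Pcdhga6 of 1.31 (SE 0.36), each with an edgeR adjusted p of 0.582 and no overlap between the 3 libraries a side. Within the 5 Malat1-rich libraries, where cre_AA14 2 stands alone, Pcdhgb6 was at 1.83 and Pcdhga6 at 1.21, Pcdhgc3 at 1.26 and Pcdhgc4 at 0.47. The values of Pcdhgc3 and Pcdhgc4 were thus over 1.5 times smaller there. Pcdhb21 had 150 counts in ctrl_AA14 and 0 in cre_AA14, at least 41.3-fold lower against the floor of 3 counts over the group. That bound pools the libraries of a group and leaves out the spread between them. The ctrl_AA14 libraries 1, 2 and 3 had 0, 125 and 25 counts, so the groups overlapped at 0.

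The difference between the AA14 effects of the genotypes is a description, since AA14 in control mice is part of it. In edgeR 0 of 58 members were called (background 0.00442%), in DESeq2 1, Pcdhgb4 (0.108% of all genes with an adjusted p), and in limma-voom 0 (0%), with 9 higher (4.86% of all genes) and 1 lower (2.17%) at an unadjusted p below 0.05. Here higher means a more positive AA14 effect in cre mice. Pcdhgb4 had a difference of 6.35 (SE 1.18), Pcdhgc3 of 1.92 (SE 0.58) and Pcdhgb6 of 1.87 (SE 0.49) on the log2 scale. The median was -0.15 for alpha, -0.07 for beta and 1.01 for gamma, beside 0.03 for all genes.

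**Figure D5:**
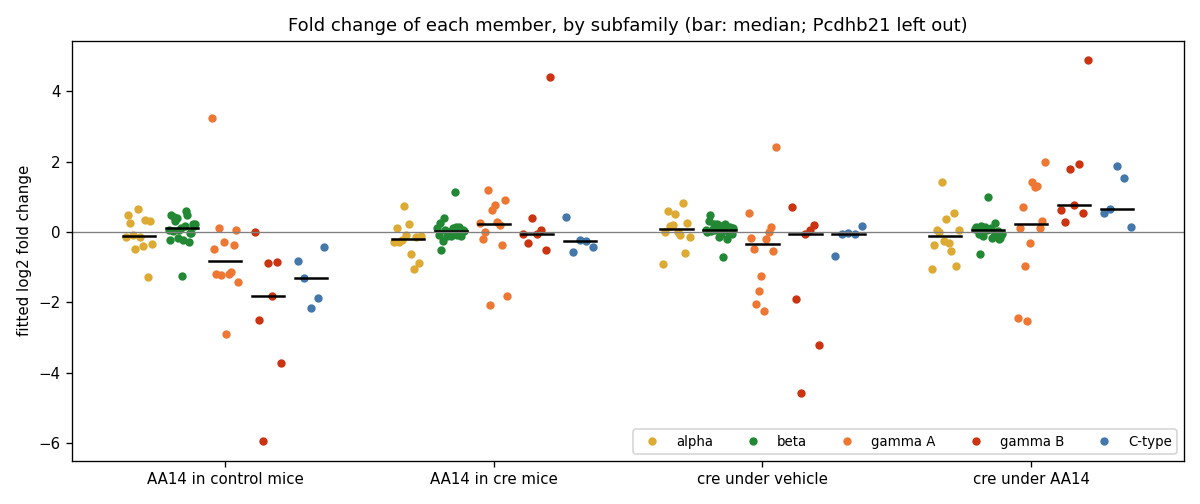
Fitted log2 fold change (edgeR) of each member in 4 comparisons by subfamily, with a bar at the subfamily median and Pcdhb21 left out because of its counts of 0. Most beta members lie near 0, with Pcdhb19 (-1.25 for AA14 in control mice, 1.00 for cre under AA14) and Pcdhb22 (1.12 for AA14 in cre mice, -0.71 for cre under vehicle) as exceptions, and most gamma A, gamma B and C-type members lie below 0 for AA14 in control mice; comparisons that share a group of libraries are not independent.

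Genes around the family were read from lists chosen with the series' earlier results known. Of 12 non-clustered protocadherins, 0 were called by edgeR in any of the 5 comparisons (0% to 0.00442% of all genes). For AA14 in control mice 7 had an unadjusted p below 0.05 (23.8% of all genes) and the median log2 fold change was -0.97, and for AA14 in cre mice 0 did (2.29% of all genes) and the median was -0.22. Their summed level was 120 to 136 CPM in the 5 Malat1-rich libraries and 151 to 282 CPM in the other 7, the same separation as for the gamma sum. Pcdh17, an axon-guidance and synapse protocadherin, was at 14.0 to 17.9 CPM in the Malat1-rich libraries and 26.7 to 51.9 CPM in the others. Such a separation was common, with 13.1% of all genes tested lower and 9.23% higher in all 5 Malat1-rich libraries.

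Of 16 genes for promoter choice and silencing of the arrays, 0 were called in any of the 5 comparisons (0% to 0.00442% of all genes). At an unadjusted edgeR p below 0.05 there were 3 for AA14 in control mice (23.8% of all genes) and 0 in cre mice (2.29%). Separations by Malat1 state in this list stand beside the same 13.1% lower and 9.23% higher of all genes tested. The insulator protein gene Ctcf was at 30.1 to 32.3 CPM in the Malat1-rich libraries and 50.5 to 63.1 CPM in the others, without overlap. The cohesin genes differed in direction. Smc3 was at 93.3 to 101 CPM in the Malat1-rich libraries and at 61.3 to 93.8 CPM in the others. Smc1a was at 143 to 161 against 85.4 to 126 CPM, while Rad21 was lower, at 117 to 134 against 140 to 169 CPM. Smchd1, a silencer of the arrays, overlapped (43.5 to 57.2 against 38.6 to 54.1 CPM). Of 17 genes for cleavage and cytoplasmic partners, 0 were called (0% to 0.00442% of all genes). At an unadjusted edgeR p below 0.05 there were 8 for AA14 in control mice (23.8% of all genes) and 0 in cre mice (2.29%). Adam10, the sheddase that cuts protocadherins at the surface, was at 40.3 to 45.2 CPM in the Malat1-rich libraries against 60.4 to 75.5 CPM in the others.

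Marker lists of other cells moved with the libraries too. The summed level of 14 neuron genes was 660 to 1007 CPM in the Malat1-rich libraries and 712 to 2282 CPM in the others, highest in ctrl_vehicle 3 and cre_vehicle 2, which also had the highest gamma sums. Its genes were lower under AA14 by fitted value in 13 of 14 cases in control mice (50.9% of all genes). In cre mice 13 of 14 were lower (50.3% of all genes). At an unadjusted edgeR p below 0.05 there were 2 and 0 of the 14 (23.8% and 2.29% of all genes). In each genotype 1 vehicle library was far above the others. The sums were 712, 727 and 2282 CPM for ctrl_vehicle and 814, 1917 and 738 CPM for cre_vehicle. The hypothalamic hormone transcripts Avp and Oxt summed to 6.38 to 9.92 CPM in the Malat1-rich libraries and 26.7 to 398 CPM in the others, without overlap. Of all genes tested, 13.1% were likewise lower. None of these lists had a gene called by edgeR in any comparison (0% to 0.00442% of all genes). Their part in the gamma levels was not tested.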

How the data were processed

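The deposited values are raw counts, 1 table for each of 12 libraries. TRIzol extraction, a NEBNext Ultra kit, paired NovaSeq reads and mapping with hisat2 2.0.0 are stated per the labels' protocols. The submitters' processing notes add build GRCm38, counting with featureCounts 1.5.0-p3 and DESeq 1.8.3. For the annotation release, the strand setting and shared reads, the settings were not given in the sources used here.

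Of 55421 IDs, 55154 matched a symbol. The edgeR 4.0.16 filterByExpr function left 22630 genes, TMM factors scaled the libraries, and quasi-likelihood F tests fitted the 4 group means to the 12 libraries together, and p-values were adjusted over all genes tested by Benjamini-Hochberg, with 0.05 as threshold. The SE is the absolute log2 fold change over the square root of F. CPM values use the same scaling. Floors of 3 counts cover counting error only, since reads carry no molecular identifiers. Only the edgeR step was tested on simulated counts, with the same spread for every gene. That spread was below the median biological coefficient of variation of all genes tested (0.333) and of gamma members (0.577). The simulation therefore cannot show how well changes are found at the spread of these genes.

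Members, lists and tests were chosen with earlier results of these data known. The naming rule took the 5 C-type genes and Pcdhgb4, the top 3 and the lowest by mean CPM in alpha, beta, gamma A and gamma B, and the 3 smallest p-values and any called member per comparison. From the other lists it took called genes and the 2 smallest p-values per comparison. Smc3, Gh, Pou1f1, Gpr101, Malat1, Mog and Opalin lie outside it and were named with their values known. So were Pcdha6, Pcdhb12, Pcdhb19, Pcdhb22, Pcdhga1, Pcdhga5, Pcdhga10 and Pcdhgb7. The library groups by Malat1 were defined from the data.

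Alternatives were RLE and upper-quartile factors, DESeq2 1.42.0, limma-voom (limma 3.58.1) with quality weights, no or a stricter low-count filter, separate fits of each pair of groups, the replicate number as a block, each library left out, a fit without the 3 libraries rich in oligodendrocyte transcripts, and fits within the 5 Malat1-rich or the other 7 libraries.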

Additional observations from a re-analysis of the deposited data

How the results depend on the processing

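The number of members called for AA14 in control mice was 9 with DESeq2, 7 with limma-voom and 6 in a fit of the groups compared only (11.9%, 15.1% and 10.6% of all genes), and 0 to 1 with a library left out. DESeq2 called 1 member for AA14 in cre mice, 3 for cre under AA14, 1 for cre under vehicle and 1 for the difference between the AA14 effects, and leaving out a library gave 0 to 1 in the latter 2 and 0 in the former 2. The single member was Pcdhgb4 without ctrl_vehicle 1 in all 3 cases. Over all genes, edgeR called 1, 0, 1, 0 and 1 (AA14 in control mice, AA14 in cre mice, cre under vehicle, cre under AA14, difference) and DESeq2 2119, 14, 18, 34 and 27. The cause of the differences between tools was not tested. For cre under vehicle, the log2 fold change of Pcdhgb2 was -1.89. It became 0.11 with limma-voom, 0.39 without ctrl_vehicle 3 (range -2.38 to 0.39 with a library left out) and 0.19 without the 3 oligodendrocyte-rich libraries, 2 of which are ctrl_vehicle 3 and cre_vehicle 2. For AA14 in cre mice, Pcdhgb8 went to -0.19 without cre_AA14 3, over a range of -0.19 to 5.38. The median over members for AA14 in cre mice was 0.31 within the 5 Malat1-rich libraries, which hold 1 library a group, each assumed to vary like the others. Upper-quartile factors moved the median of all genes for AA14 in control mice from -0.02 to 0.11.

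With the replicate number as a block, 0 members were called in each comparison and the medians were -0.20, -0.01, 0.01, 0.11 and 0.15 (in that order). Correlations of same-numbered libraries ran from -0.33 to 0.22, so the numbers were not taken as pairs. With a library left out, medians ranged from -0.28 to -0.08, -0.19 to 0.05, -0.10 to 0.14, 0.05 to 0.25 and -0.07 to 0.23 in the same order. Splits by Malat1 could not be fitted for AA14 in control mice or the difference, and each of the cre effects could be fitted on 1 side only. The fit of the groups compared only equals the reported one for the difference. Leaving out a library moved the gamma mean of cre_vehicle over 196 to 391 CPM and that of cre_AA14 over 196 to 322 CPM. Depth limits the low members most: Pcdha1 and Pcdhb21 rest on few counts.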
